A study of Mus musculus with 2 samples.

Results

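The contractile genes of smooth muscle were described in adrenal gland of young mice. They are 10 genes taken by symbol from the 55536 annotated genes of the deposited gene tables: Acta2, Actg2, Myh11, Tagln, Cnn1, Des, Smtn, Lmod1, Mylk and Myocd. The symbols were fixed by name and by no rule on measured values, though they were chosen with earlier results of these data known. The samples were adrenal glands of male B6CASTF1/J mice, an F1 hybrid of C57BL/6J and CAST/EiJ, at 10 days of age. Total RNA was sequenced in 2 libraries, replicate 2 and replicate 1, each made from 300 ng, and ERCC spike-ins, synthetic transcripts in known amounts, were added. Both libraries belong to 1 group, and the design holds no second condition.

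The sample characteristics number the animals 04 for replicate 2 and 03 for replicate 1, but both library descriptions carry the animal number 03, and both samples carry 1 donor identifier. Whether the libraries come from separate animals is therefore stated in conflicting ways. Expected counts totalled 38984236 in replicate 2 and 36982665 in replicate 1, of which spike-ins took 0.879% in replicate 2 and 0.892% in replicate 1. The labelled tissue carried its defining markers. All 12 listed markers of adrenal cortex and all 12 of chromaffin cells, the catecholamine cells of the medulla, had at least 1 TPM (a level per transcript length, scaled to the same total in each library) in both libraries. Their summed levels were 6606 TPM in replicate 2 against 7645 TPM in replicate 1 for cortex, and 1479 TPM in replicate 2 against 1751 TPM in replicate 1 for chromaffin cells.

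Smooth muscle shortens when myosin pulls on actin filaments that are anchored to dense bodies in the cytoplasm and to plaques at the membrane. A rise in calcium activates myosin light chain kinase, which phosphorylates the regulatory light chain and so switches the motor on. In the cell nucleus, serum response factor bound to CArG boxes recruits myocardin, which turns on most genes of this programme. In an endocrine gland such as the adrenal, cells of this kind are known from the walls of arteries and arterioles, and spindle-shaped actin-containing cells from the capsule.

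Reads are told apart between the muscle actins only where their sequences differ. The last 60 coding bases, without the stop codon, are shown for the 4 muscle actins from the GENCODE M21 transcripts, because these genes are the members most open to mixed assignment. Capitals mark bases that differ from Acta2.
Acta2: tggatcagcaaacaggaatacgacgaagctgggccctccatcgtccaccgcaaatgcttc
Actg2: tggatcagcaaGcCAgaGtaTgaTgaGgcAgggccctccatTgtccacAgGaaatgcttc
Acta1: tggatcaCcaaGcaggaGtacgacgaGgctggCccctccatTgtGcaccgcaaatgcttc
Actc1: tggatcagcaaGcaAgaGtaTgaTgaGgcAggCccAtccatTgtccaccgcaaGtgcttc
In this stretch Actg2 differs from Acta2 at 11 bases, Acta1 at 7 and Actc1 at 11. Over the whole coding sequence the identity to Acta2 was 84.2% for Actg2, 85.4% for Acta1 and 82.6% for Actc1. The expected counts of all 10 smooth muscle genes were whole numbers, within 0.005, in both libraries, so the gene tables hold no fractional counts for them.

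Myh11, the myosin heavy chain of smooth muscle, is known for 2 alternative exons that change its head and its tail. The first is the exon absent from transcript Myh11-201 and present in Myh11-204, exon 6, at chr16:14248580-14248600 on the minus strand of mm10. It adds 7 codons, which belong to the loop near the nucleotide pocket of the faster SM-B form. Capitals mark the exon, with 15 bases of its neighbours on each side.
Myh11-204: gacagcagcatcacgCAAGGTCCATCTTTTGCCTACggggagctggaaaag
The second is exon 41 of Myh11-202, whose coding part lies at chr16:14198061-14198088 on the minus strand and gives the tail of the SM2 form. Its 28 coding bases, of 39 in the exon, are in capitals after 15 bases of the exon before.
Myh11-202: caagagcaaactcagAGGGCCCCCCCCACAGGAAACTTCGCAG

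The CArG box is the site of serum response factor, a stretch of 10 bases that opens with CC, closes with GG and has 6 bases of A or T between. Promoters in the RefSeq table (GRCm38.p6) were available for 6 of the 10 genes: Acta2, Cnn1, Des, Lmod1, Mylk and Smtn. Only the 250 bases before each RefSeq start were searched, and the box reads alike on both strands. None of the 6 held a strict box, against 482 of all 32851 promoters (1.47%). With 1 C or G allowed among the middle bases, a rule chosen after the sequences were seen, Acta2 was the only one of the 6 with a match, against 8.59% of all promoters. Acta2 held 2 such boxes, and 0.670% of all promoters held 2 or more. The boxes start 84 and 34 bases before the RefSeq start, and are shown because Acta2 had the highest mean level of the 10 genes. Each is printed in capitals with 10 bases on either side, and the printed windows lie at chr19:34255438-34255467 and chr19:34255388-34255417 on the minus strand.
Acta2 distal box: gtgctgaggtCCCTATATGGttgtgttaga
Acta2 proximal box: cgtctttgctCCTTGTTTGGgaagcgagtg
GENCODE M21 places the start of Acta2-201 further upstream, so both boxes fall in its first exon in that annotation. No match says only that these letters are not in this window.

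The 10 genes were all detected, and in the gene tables every one of them had a higher level in replicate 2 than in replicate 1. Their summed level was 144.9 TPM in replicate 2 against 75.7 TPM in replicate 1. Of the 10, 7 reached at least 1 TPM in both libraries and 5 reached at least 10 TPM in both. In count ratios scaled between libraries by TMM, the genes were between 1.17-fold and 7.90-fold higher in replicate 2. The ratio was above 2-fold for 6 of 10 genes, and for none was it more than 2-fold lower. Of the 18175 annotated genes averaging at least 10 counts, which all 10 genes do, 8.00% were more than 2-fold apart, 6.74% being higher and 1.26% lower in replicate 2, and 50.6% were higher by any amount. Of the 13188 genes averaging at least 100 counts, 4.50% were more than 2-fold apart, 4.38% being higher and 0.114% lower in replicate 2. Of the 10 contractile genes, 8 average at least 100 counts, Cnn1 and Lmod1 only through replicate 2, and Actg2 and Myocd lie below. The median ratio of the 10 genes was 2.12, beside 1.00 over all 21874 genes with more than 3 counts in a library.

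No p-value can be given for a difference between single libraries, and 2 libraries allow no two-sided exact p below 0.5. The intervals given below are exact binomial (Clopper-Pearson) 95% intervals of the count ratio. They cover counting error only, since the reads carry no molecular identifiers, and do not cover differences between glands or dissections. Fewer cells of a type and less RNA per cell cannot be told apart in whole tissue.

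**Figure D1:**
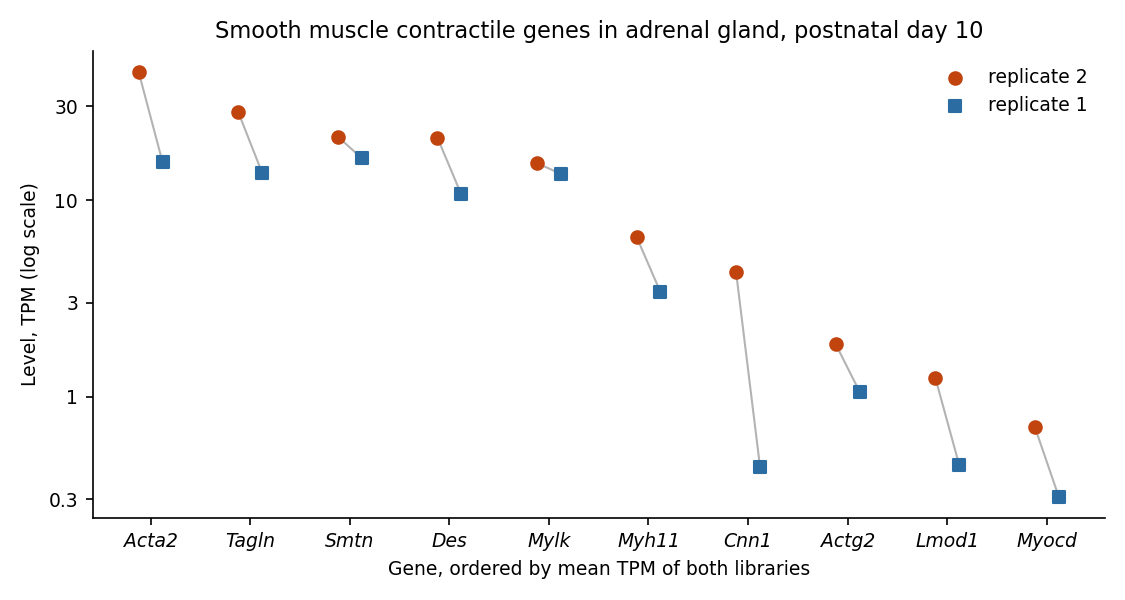
Level of each smooth muscle contractile gene in TPM (log scale) in replicate 2 (circles) and replicate 1 (squares), ordered by the mean of both libraries. The circle lies above the square for all 10 genes, and on this scale the gap is widest for Cnn1, at 4.29 TPM in replicate 2 against 0.44 TPM in replicate 1.

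The smooth muscle actins stood far apart in level. Acta2 (ENSMUSG00000035783.9, chr19:34241090-34255590, minus strand) encodes alpha smooth muscle actin, the thin filament actin of vascular smooth muscle. It had 44.9 TPM in replicate 2 against 15.6 TPM in replicate 1, a mean of 30.3 ± 20.7 TPM (SD, n = 2). Its 2672 counts in replicate 2 and 866 counts in replicate 1 gave a ratio of 3.09 (2.86 to 3.34), so the gap between the libraries was far wider than counting error. Actg2 (ENSMUSG00000059430.14, chr6:83512905-83536265, minus strand) encodes the gamma smooth muscle actin best known from gut and other visceral muscle. It had 1.85 TPM in replicate 2 against 1.06 TPM in replicate 1, with 83 counts in replicate 2 and 48 counts in replicate 1 and a ratio of 1.73 (1.20 to 2.52). Acta2 exceeded Actg2 24.3-fold in TPM in replicate 2 and 14.7-fold in replicate 1, so the vascular form led in both libraries.

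The proteins that sit on the actin filament included Cnn1, the gene with the highest count ratio between libraries. Tagln (ENSMUSG00000032085.5, chr9:45929619-45936058, minus strand) encodes transgelin, or SM22-alpha, an actin cross-linking protein. It had 28.1 TPM in replicate 2 against 13.8 TPM in replicate 1, with 1148 counts in replicate 2 and 555 counts in replicate 1 and a ratio of 2.07 (1.87 to 2.30). The interval holds 2, so at this depth Tagln is not set apart from a 2-fold difference. Cnn1 (ENSMUSG00000001349.5, chr9:22099216-22109630, plus strand) encodes calponin 1, which binds actin and restrains the myosin ATPase, and which marks mature smooth muscle. It had 4.29 TPM in replicate 2 against 0.44 TPM in replicate 1. Its 221 counts in replicate 2 and 28 counts in replicate 1 gave a ratio of 7.90 (5.32 to 12.2), whose whole interval lies above that of each of the other 9 genes.

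Smtn (ENSMUSG00000020439.17, chr11:3517523-3540612, minus strand) encodes smoothelin, an actin-associated protein of contractile smooth muscle. It had 21.1 TPM in replicate 2 against 16.35 TPM in replicate 1, with 1674 counts in replicate 2 and 1434 counts in replicate 1 and a ratio of 1.17 (1.09 to 1.25). Its count ratio was the lowest of the 10, with an interval wholly below 2. Lmod1 (ENSMUSG00000048096.7, chr1:135324807-135368065, plus strand) encodes leiomodin 1, which nucleates actin filaments in smooth muscle. It had 1.25 TPM in replicate 2 against 0.45 TPM in replicate 1, with 178 counts in replicate 2 and 63 counts in replicate 1 and a ratio of 2.83 (2.11 to 3.83).

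The motor and its kinase did not differ by the same ratio. Myh11 (ENSMUSG00000018830.10, chr16:14194535-14291372, minus strand) had 6.50 TPM in replicate 2 against 3.41 TPM in replicate 1. Its 1504 counts in replicate 2 and 763 counts in replicate 1 gave a ratio of 1.97 (1.81 to 2.16), just under the 2-fold threshold, while Tagln at 2.07 was just over it. Mylk (ENSMUSG00000022836.11, chr16:34745210-35002420, plus strand), the myosin light chain kinase that switches the motor on, had 15.4 TPM in replicate 2 against 13.6 TPM in replicate 1. Its 2595 counts in replicate 2 and 2144 counts in replicate 1 gave a ratio of 1.21 (1.14 to 1.28). Mylk and Smtn were the 2 genes whose whole interval lay below 2. In the second transcript table the summed level of Mylk was slightly lower in replicate 2, at 25.1 TPM against 26.0 TPM in replicate 1, although its scaled count ratio there was 1.23. Mylk exceeded Myh11 2.38-fold in TPM in replicate 2 and 3.99-fold in replicate 1.

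Des (ENSMUSG00000026208.9, chr1:75360329-75368579, plus strand) encodes desmin, the intermediate filament protein of muscle, which skeletal and cardiac muscle also make. It had 20.8 TPM in replicate 2 against 10.7 TPM in replicate 1, with 1975 counts in replicate 2 and 910 counts in replicate 1 and a ratio of 2.17 (2.01 to 2.35). Desmin and myosin kept nearly the same proportion, with Des exceeding Myh11 3.20-fold in TPM in replicate 2 and 3.13-fold in replicate 1.

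Myocd (ENSMUSG00000020542.18, chr11:65176561-65269989, minus strand) encodes myocardin, the coactivator of the programme, which heart muscle also makes. In the gene tables it was the lowest of the 10 in both libraries, at 0.70 TPM in replicate 2 against 0.31 TPM in replicate 1. Myocd had 86 counts in replicate 2 and 34 counts in replicate 1, a ratio of 2.53 (1.68 to 3.89). In the second transcript table Lmod1 lay below Myocd in replicate 1, at 0.640 TPM against 0.741 TPM. Its partners are expressed in many cell types and were far more abundant. Srf, the serum response factor, had 12.5 TPM in replicate 2 against 9.24 TPM in replicate 1, a ratio of 1.32 (1.20 to 1.46). The myocardin-related coactivators, which carry the signal of actin dynamics to Srf, stood near 1: Mrtfa had a ratio of 0.949 (0.866 to 1.04) and Mrtfb of 0.929 (0.872 to 0.989). Srf exceeded Myocd 17.8-fold in TPM in replicate 2 and 29.8-fold in replicate 1.

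**Figure D2:**
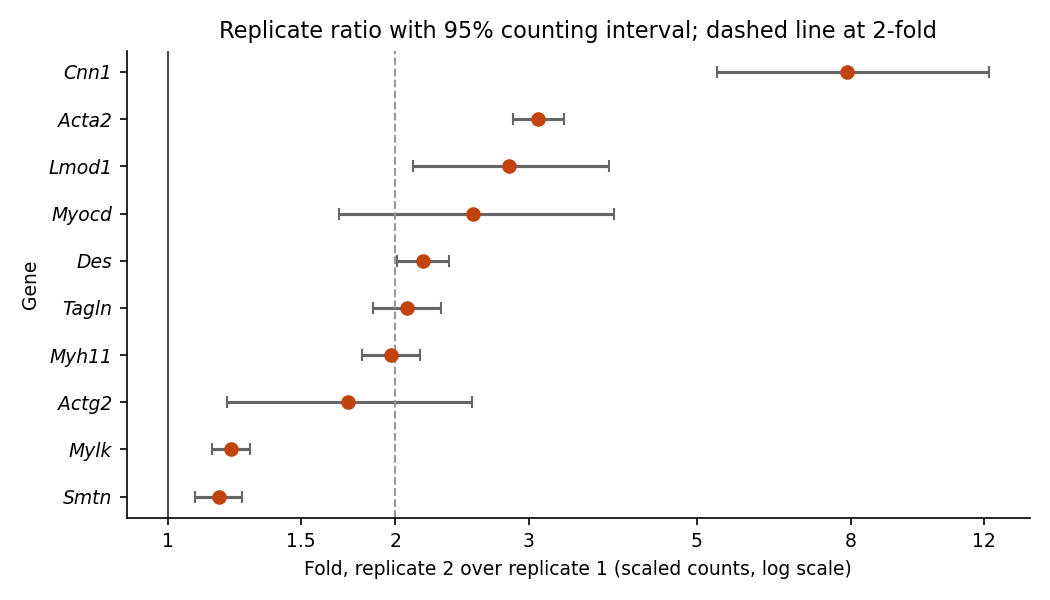
Ratio of replicate 2 over replicate 1 in TMM-scaled expected counts (log scale) for each of the 10 genes, with exact 95% counting intervals as bars, a solid line at 1 and a dashed line at 2. All 10 intervals lie above 1, 4 lie wholly above 2 (Cnn1, Acta2, Lmod1 and Des), 4 hold 2 (Myocd, Tagln, Myh11 and Actg2) and 2 lie wholly below 2 (Mylk and Smtn).

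In the gene tables the order of the genes by mean TPM was Acta2, Tagln, Smtn, Des, Mylk, Myh11, Cnn1, Actg2, Lmod1 and Myocd. The highest mean exceeded the lowest 59.9-fold. The means were 20.9 ± 10.1 TPM for Tagln, 18.7 ± 3.34 TPM for Smtn and 14.5 ± 1.29 TPM for Mylk (SD, n = 2). Neighbours in this order had overlapping ranges over the libraries, with the exception of Mylk and Myh11, so the genes fall into an upper set of 5 and a lower set of 5. Within the upper set the order differed between libraries: Acta2 ranked 1 in replicate 2 and 2 in replicate 1, while Smtn ranked 3 in replicate 2 and 1 in replicate 1. In the lower set Cnn1 ranked 7 in replicate 2 and 9 in replicate 1. Cnn1 stood at 0.660 of the Myh11 level in replicate 2 and at 0.129 in replicate 1, both in TPM.

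In families with a smooth muscle and a general form, the smooth muscle form took a larger share of the family in replicate 2. Acta2 made up 2.73% of the summed TPM of the 6 actins in replicate 2 and 1.22% in replicate 1, and Actg2 made up 0.112% in replicate 2 and 0.083% in replicate 1. The non-muscle actins led, with Actb at 59.2% in replicate 2 and 68.6% in replicate 1. Acta1, the skeletal muscle actin, was more abundant than Acta2 at 18.5% in replicate 2 and 8.37% in replicate 1. Acta1 exceeded Acta2 6.80-fold in TPM in replicate 2 and 6.85-fold in replicate 1, so the skeletal and the smooth muscle actin differed between the libraries by nearly the same ratio (2.90 for Acta1, with an interval of 2.81 to 2.99).

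Cnn1 made up 4.52% of the 3 calponins in replicate 2 and 0.543% in replicate 1, while Cnn3, the calponin found in many non-muscle cells, made up 75.3% in replicate 2 and 83.6% in replicate 1. Tagln made up 40.0% of the 3 transgelins in replicate 2 and 24.9% in replicate 1, the highest share among the actins, calponins, transgelins and myosins that a smooth muscle form reached. Its widely expressed paralog Tagln2 had 39.8 TPM in replicate 2 against 39.0 TPM in replicate 1, a ratio of 0.977. Myh11 made up 6.84% of the 4 heavy chains that include the non-muscle myosins in replicate 2 and 3.50% in replicate 1. Myh9, the main non-muscle heavy chain, had 73.8 TPM in replicate 2 against 79.7 TPM in replicate 1, a ratio of 0.944, and exceeded Myh11 11.4-fold in TPM in replicate 2 and 23.4-fold in replicate 1.

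**Figure D3:**
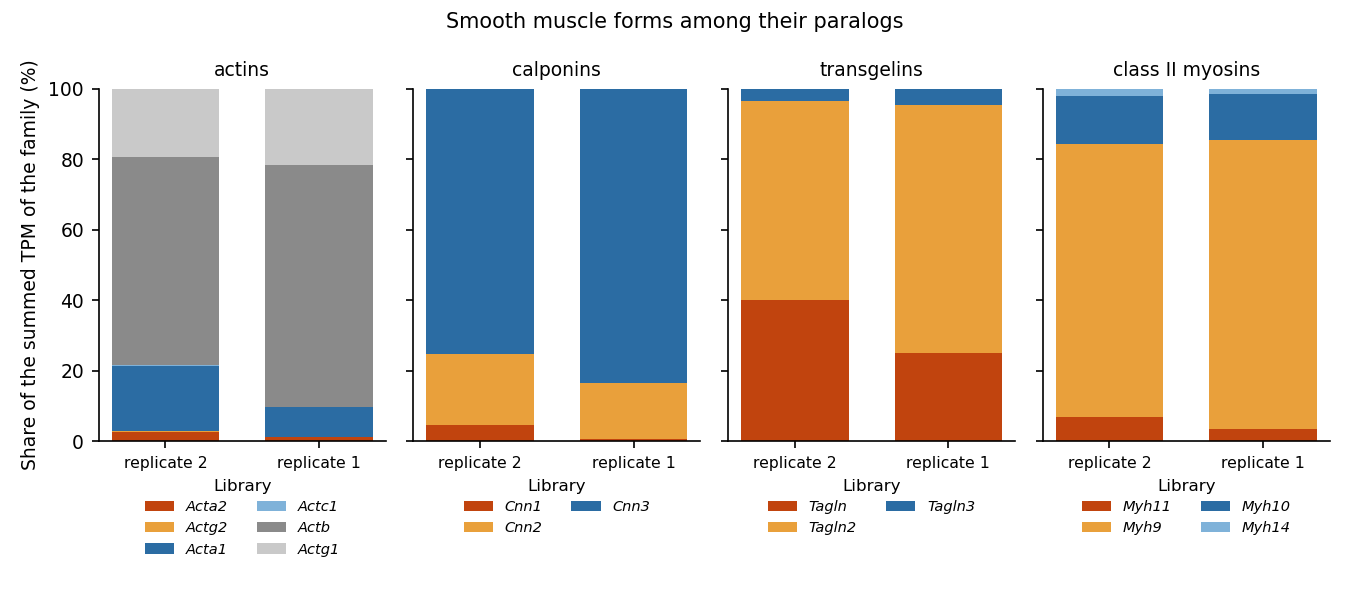
Share of the summed TPM of each family taken by each gene, in replicate 2 (left bar) and replicate 1 (right bar), for actins, calponins, transgelins and non-muscle and smooth muscle myosin heavy chains. The smooth muscle forms are the lowest segments, among them Tagln at 40.0% in replicate 2 and 24.9% in replicate 1 and Myh11 at 6.84% in replicate 2 and 3.50% in replicate 1.

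Paralogs of the remaining genes that belong to skeletal or cardiac muscle also had higher levels in replicate 2. Lmod2 and Lmod3, the leiomodins of striated muscle, had ratios of 4.18 (3.17 to 5.58) and 2.58 (1.69 to 4.05). Mylk2, the kinase of skeletal muscle, had 1.02 TPM in replicate 2 against 0.35 TPM in replicate 1, a ratio of 2.92 (1.99 to 4.37). Smtnl1, a smoothelin-like protein of striated and smooth muscle, had a ratio of 2.52 (1.64 to 3.95). The widely expressed Tmod3, which caps actin filaments, had a ratio of 0.976. Among the other intermediate filament genes, Vim, the vimentin of mesenchymal cells, had 201.7 TPM in replicate 2 against 151.4 TPM in replicate 1, a ratio of 1.34. Prph, the peripherin of peripheral neurons, had a ratio of 3.10 (2.57 to 3.77), and Nes, the nestin of progenitor and vessel cells, a ratio of 1.00.

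Transcript levels were deposited in 2 transcript tables, the first made from alignments like the gene tables and the second directly from the reads. A transcript difference is given here with both, since they assign reads to overlapping transcripts differently and the intervals do not cover that assignment. Acta2-201, the full-length transcript, had 32.5 TPM in replicate 2 against 10.2 TPM in replicate 1 in the first table, a ratio of 3.24 (2.98 to 3.53). In the second table its ratio was 3.30 (3.03 to 3.60). The shorter Acta2-202 had ratios of 2.32 (1.90 to 2.83) in the first table and 2.55 (2.22 to 2.95) in the second, so both transcripts were higher in replicate 2 in both tables. Its share of the gene depended on the table: 27.6% in replicate 2 in the first table, with Acta2-201 at 72.4%, against 48.9% for Acta2-201 in replicate 2 in the second table.

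For Myh11 the transcript without the head exon led. Myh11-201 had 5.33 TPM in replicate 2 against 2.54 TPM in replicate 1, or 82.0% of the gene in replicate 2 and 74.5% in replicate 1, with a ratio of 2.13 (1.93 to 2.35) in the first table and 2.56 (2.31 to 2.84) in the second. Myh11-204, which carries the 7-codon exon shown above, had 0.57 TPM in replicate 2 against 0.43 TPM in replicate 1, a ratio of 1.36 (1.04 to 1.77). In the second table its ratio was 1.08 (0.88 to 1.32), so the intervals of both transcripts lay apart in either table, with the exon-carrying form nearer to 1. Myh11-202, with the alternative tail exon shown above, lay below 1 TPM in every table and was picked after its values were seen. It had 76.4 counts in replicate 2 and 49.8 counts in replicate 1, a ratio of 1.54 (1.05 to 2.22), and the second table gave a ratio of 1.55 (1.19 to 2.02).

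Smtn is known for a short smooth muscle form read from its 3′ part and for longer forms in vascular muscle. The short Smtn-201 (chr11:3517523-3527937, coding length 1308 bases) had 2.55 TPM in replicate 2 against 1.34 TPM in replicate 1, a ratio of 1.93 (1.46 to 2.55). The 4 long coding transcripts together had 11.7 TPM in replicate 2 against 10.9 TPM in replicate 1, a ratio of 1.09 (1.01 to 1.17). In the second table the short form had a ratio of 2.50 (1.68 to 3.82) and the long forms together 1.11 (1.04 to 1.20). Single long forms went opposite ways in the second table, with Smtn-202 at 0.601 (0.533 to 0.677) and Smtn-210 at 2.53 (2.22 to 2.88), so the short form is set apart from the sum of the long forms and not from each of them. The gene-level ratio of 1.17 thus lay near that of the long forms, which carried most of the level, while the ratio of the short form lay near those of Myh11 and Tagln.

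The coding transcripts annotated for Mylk are a long kinase form and a short form from its 3′ end. The short form lies at the place of telokin, a smooth muscle protein without the kinase part. No shorter form of the kinase is annotated as a separate coding transcript, so forms of the kinase cannot be told apart here. The long Mylk-201 had 7.42 TPM in replicate 2 against 6.30 TPM in replicate 1, a ratio of 1.19 (1.12 to 1.27). The short Mylk-203 (length 1620 bases, coding length 477 bases) had 3.83 TPM in replicate 2 against 3.36 TPM in replicate 1, a ratio of 1.16 (0.946 to 1.41). The second table gave 1.17 (1.10 to 1.25) for the long form and 1.22 (1.05 to 1.44) for the short form, so the intervals of the long and the short coding form overlapped in both tables. Noncoding transcripts of Mylk differed from these. Mylk-207, which keeps an intron, had a ratio of 2.25 (1.68 to 3.11) in the first table and 1.87 (1.61 to 2.19) in the second, and the processed transcript Mylk-204 had ratios of 0.742 (0.520 to 1.06) and 0.276 (0.158 to 0.469).

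**Figure D4:**
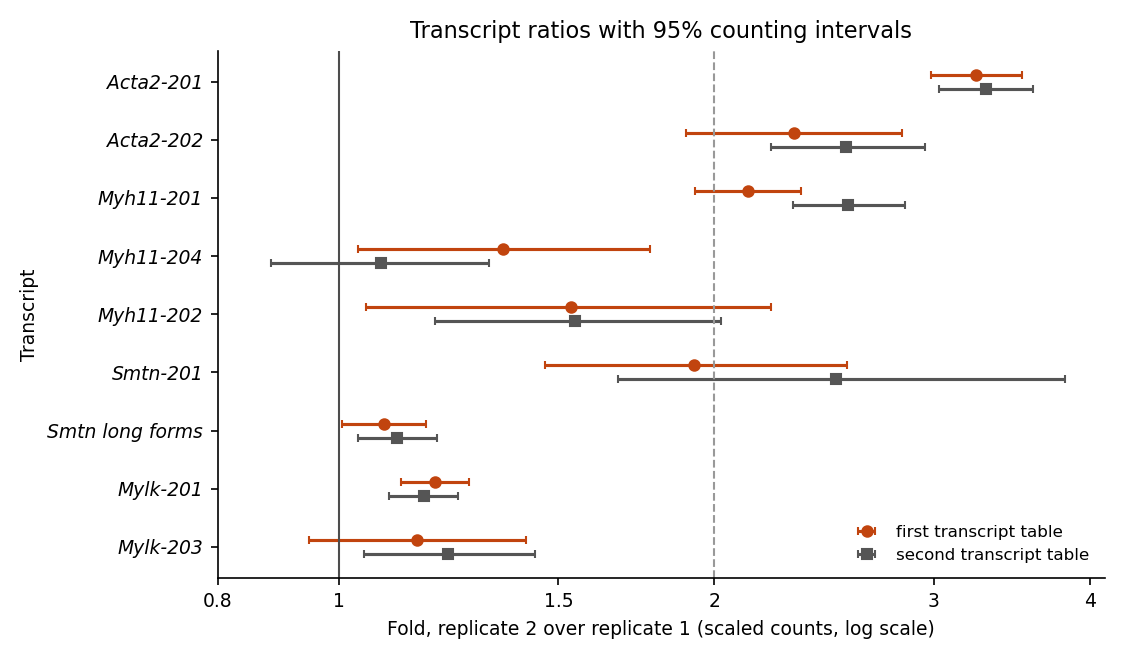
Ratio of replicate 2 over replicate 1 (log scale) for transcripts of Acta2, Myh11, Smtn and Mylk in the first transcript table (circles) and the second (squares), with 95% counting intervals, a solid line at 1 and a dashed line at 2. Smtn-201 lies at 1.93 and 2.50 and the long Smtn forms at 1.09 and 1.11, while the Mylk coding forms lie between 1.16 and 1.22.

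The transcripts Des-201, Tagln-201 and Cnn1-201 had like ratios in both tables, while some other transcripts of these genes depended on the table. Des-201, the coding transcript, had ratios of 2.26 in the first table and 2.30 in the second, while Des-202, which keeps an intron, had 1.30 (0.95 to 1.80) and 1.84 (1.52 to 2.23). In the second table Des-202 took 47.4% of the gene in replicate 2 and 50.5% in replicate 1, against 49.4% and 41.8% for Des-201. Tagln-201 had ratios of 2.05 in the first table and 2.03 in the second. The short Tagln-202 was given 8.60 TPM in replicate 2 against 4.34 TPM in replicate 1 by the first table and was listed at 0 in both libraries by the second. Cnn1-201 had ratios of 6.07 in the first table and 5.67 in the second. In replicate 2 it took a smaller share of the gene than Cnn1-205, at 34.7% against 39.4% in the first table and 22.5% against 56.1% in the second. Cnn1-205 had 48.3 counts in replicate 2 and 0 in replicate 1 in the first table, and a ratio of 9.81 (4.66 to 26.1) in the second. The split of Actg2 turned between tables, with Actg2-202 at 0.80 TPM in replicate 2 and 0 in replicate 1 in the first and at 0.19 TPM in replicate 2 against 1.59 TPM in replicate 1 in the second, so no transcript of Actg2 is set against another. Lmod1 has 1 annotated transcript, and none of the 6 of Myocd reached 1 TPM.

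Genes that work with the 10 were listed in 4 groups of 71 genes in all, of which 70 had a ratio. They had a median ratio of 1.07, from 0.669 to 4.49, with 45 higher and 25 lower in replicate 2. In all, 7 were more than 2-fold higher and none more than 2-fold lower, beside 6.74% higher and 1.26% lower among all genes averaging at least 10 counts. Of the 71 genes, 63 averaged at least 100 counts, a level at which 4.38% of all genes were more than 2-fold higher. The thin filament and light chain partners had a median ratio of 1.26, with 2 of 10 more than 2-fold higher. These were Tpm2, a tropomyosin of smooth and striated muscle, at 67.3 TPM in replicate 2 against 35.98 TPM in replicate 1 with a ratio of 2.01 (1.90 to 2.13), and Hspb7, a small heat shock protein best known from heart and skeletal muscle, with a ratio of 4.49 (3.43 to 5.95). Tpm1, the other main muscle tropomyosin, had a ratio of 1.64 (1.58 to 1.71), and Myl6, the essential light chain shared with non-muscle myosin, had a ratio of 1.06.

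Among the 18 genes of dense bodies, intermediate filaments and adhesion, the median ratio was 1.14 and 1 gene was more than 2-fold higher. This was Pdlim3, a PDZ and LIM protein that binds alpha-actinin in muscle, at 7.17 TPM in replicate 2 against 1.72 TPM in replicate 1, with a ratio of 4.24 (3.38 to 5.35). The more abundant members stood near 1, with Itgb1, the beta 1 integrin, at 0.978 and Actn4, a non-muscle alpha-actinin, at 1.01. The 25 genes of contraction signalling had a median of 0.99, with 11 higher and 14 lower. Rhoa, a small GTPase that raises calcium sensitivity, had a ratio of 0.993, and Ppp1cb, the catalytic subunit of myosin phosphatase, 1.01. Agtr1a, the angiotensin II receptor, which cortex cells also carry, had 52.4 TPM in replicate 2 against 69.4 TPM in replicate 1, a ratio of 0.829.

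The 18 regulators of the smooth muscle programme had a median of 1.05 over the 17 with a ratio. Klf4, a repressor of contractile genes in dedifferentiating smooth muscle, had a ratio of 1.46 (1.36 to 1.58), Mef2c, a muscle transcription factor, 1.05, and Gata6, which vascular muscle and adrenal cortex share, 0.918. The remaining 4 partner genes past 2-fold had few counts and were picked after their values were seen. Kcnmb1, the smooth muscle subunit of the BK potassium channel, had 22 counts in replicate 2 and 9 counts in replicate 1, a ratio of 2.45 (1.08 to 6.04). Chrm2, a muscarinic receptor of visceral muscle and heart, had a ratio of 2.55, Prdm6, a repressor in smooth muscle, 2.31, and Foxf1, a factor of visceral mesenchyme, 2.34.

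**Figure D5:**
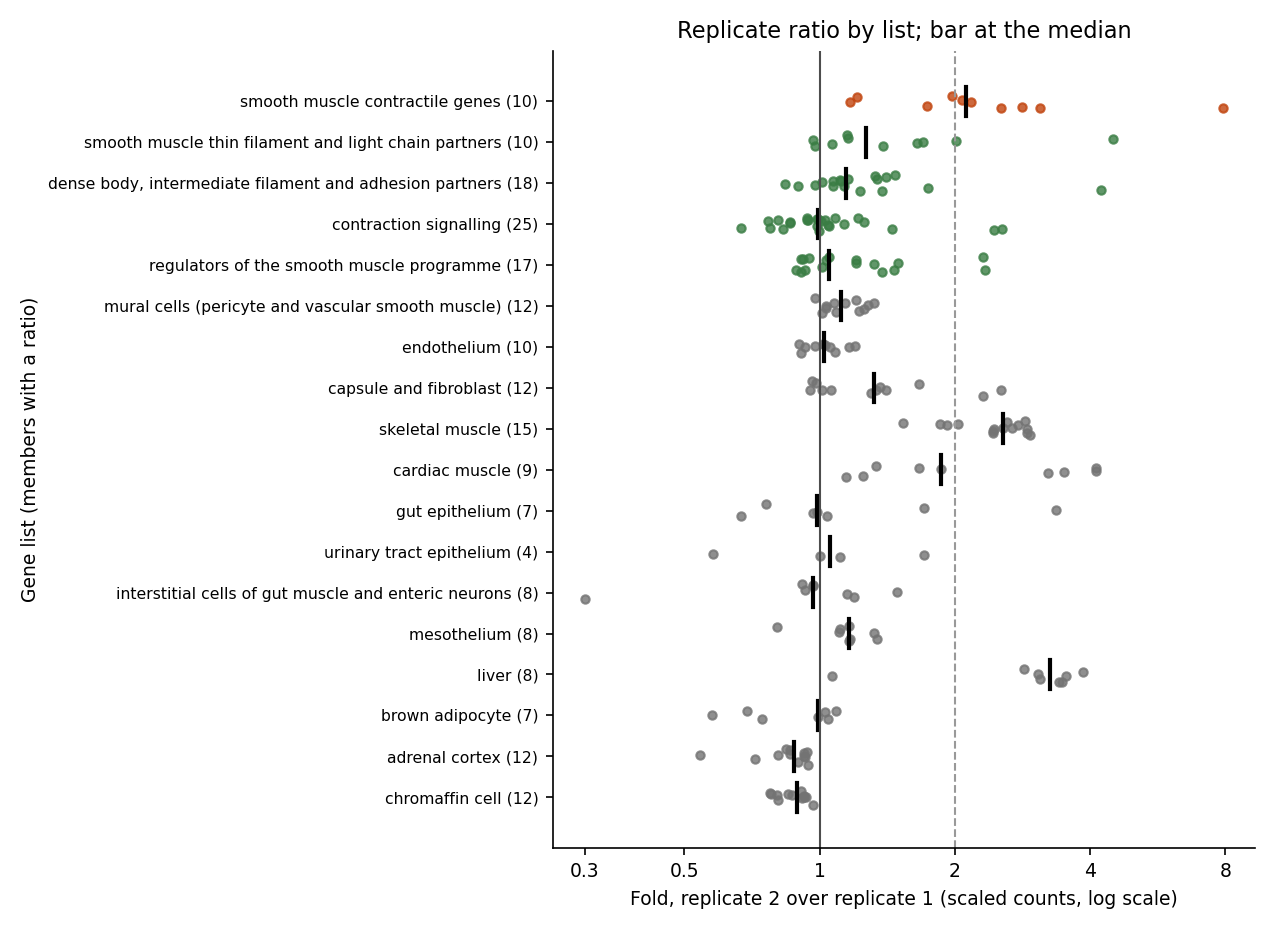
Ratio of replicate 2 over replicate 1 (log scale) for each gene of the 10 smooth muscle contractile genes, 4 partner lists and 13 cell type lists, with black bars at list medians, a solid line at 1 and a dashed line at 2. The contractile genes have their median at 2.12, skeletal muscle and liver lie at 2.56 and 3.26, and mural cells and endothelium lie at 1.11 and 1.02.

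The listed markers of mural cells and endothelium did not differ to the same degree. The mural list takes pericytes and vascular muscle cells together, so it does not speak for the muscle cells alone. Of 12 markers of mural cells, the pericytes and muscle cells of vessel walls, 11 were higher and 1 lower in replicate 2. Their ratios ran from 0.98 to 1.32 with a median of 1.11, and their summed level was 176.5 TPM in replicate 2 against 151.7 TPM in replicate 1. Rgs5, a regulator of G protein signalling typical of pericytes, had 46.0 TPM in replicate 2 against 37.6 TPM in replicate 1. It stood at 1.02 times the Acta2 level in replicate 2 and at 2.41 times in replicate 1, both in TPM. The 10 endothelial markers had ratios from 0.90 to 1.20, with 6 higher and 4 lower, and summed to 357.4 TPM in replicate 2 against 356.0 TPM in replicate 1. Smtn at 1.17 and Mylk at 1.21 lay within the range of the mural ratios, and the other 8 contractile genes lay above it.

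Markers of skeletal muscle, heart muscle and liver were higher in replicate 2 along with the contractile genes. Of all genes, 6.74% of those averaging at least 10 counts and 4.38% of those averaging at least 100 were more than 2-fold higher. All 15 skeletal muscle markers were higher, 12 of them more than 2-fold, with ratios from 1.54 to 2.94 and a summed level of 1110 TPM in replicate 2 against 420.2 TPM in replicate 1. Ckm, the muscle creatine kinase, had 114.9 TPM in replicate 2 against 39.4 TPM in replicate 1, and Mylpf, a light chain of fast muscle, had 225.3 TPM in replicate 2 against 86.9 TPM in replicate 1. All 9 cardiac markers with a ratio were higher, 4 of them more than 2-fold, while Nppa, a hormone of the atria, was listed at 0 in both. The list summed to 27.7 TPM in replicate 2 against 8.91 TPM in replicate 1. Of the 10 cardiac markers listed, only 3 averaged at least 100 counts. The counting intervals of Tnnt2 (0.900 to 3.18), Tnni3 (0.269 to 6.31) and Myl4 (0.739 to 1.79) held 1. So did that of Myl7, with 4 counts in replicate 2 and 0 in replicate 1. The intervals of Actc1, Myh6, Myh7, Myl2 and Myl3 lay above 1. All 8 liver markers were higher, 7 of them more than 2-fold, with Alb, the serum albumin, at 6173 TPM in replicate 2 against 2046 TPM in replicate 1. Of 12 capsule and fibroblast markers 9 were higher and 3 lower, with ratios from 0.95 to 2.53 and a median of 1.32. More than 2-fold higher were 2 of them. Col1a1, a chain of type I collagen, had the highest ratio of this list, with 522.4 TPM in replicate 2 against 209.4 TPM in replicate 1. The part of these tissues in the levels of the 10 genes was not tested.

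Visceral organs that carry their own smooth muscle left few transcripts. Of the 10 gut epithelium markers 7 had a ratio, with 3 higher and 4 lower in replicate 2, and summed to 22.6 TPM in replicate 2 against 21.01 TPM in replicate 1. The intestinal regulators Cdx1 and Cdx2 were listed at 0 in both libraries. Fabp2, the intestinal fatty acid binding protein, was the gut marker past 2-fold, at 5.94 TPM in replicate 2 against 1.80 TPM in replicate 1. The 8 urinary tract markers summed to 3.04 TPM in replicate 2 against 2.84 TPM in replicate 1, with Upk3a and Umod at 0 in both. The 9 markers of interstitial cells of gut muscle and of enteric neurons summed to 37.2 TPM in replicate 2 against 33.6 TPM in replicate 1, with Chat, the enzyme of acetylcholine synthesis, at 0 in both and the neuropeptide gene Vip more than 2-fold lower, at 3 counts in replicate 2 and 10 counts in replicate 1. Brown adipocyte markers, in contrast, were abundant, summing to 3076 TPM in replicate 2 against 3483 TPM in replicate 1. Of these 7 markers 3 were higher and 4 lower in replicate 2. Of the 8 mesothelial genes 7 were higher, and their median ratio was 1.16. The adrenal markers went the other way, with all 12 cortex markers and all 12 chromaffin markers lower in replicate 2, at median ratios of 0.88 and 0.89.

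Neighbouring genes on the opposite strand overlap 5 of the 10 genes, and whether the counting used strand is not given in the sources used here. Beside Tagln lie Pcsk7, a protease gene that overlaps it by 108 bases, with 897 counts in replicate 2 and 892 counts in replicate 1, and the antisense gene Gm48529, with 73 counts in replicate 2 and 80 counts in replicate 1. The genes opposite Des, Smtn, Lmod1 and Mylk had at most 5 counts in a library. Neither neighbour of Tagln had a gap between libraries as wide as that of Tagln.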

How the data were processed

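Total RNA of 2 adrenal gland samples was sequenced, 1 library each. Per the file headers and the deposited notes, the authors made a gene table and a first transcript table from transcriptome alignments on mm10 with GENCODE M21, tRNAs and spike-ins, holding unnormalised expected counts and TPM over all entries. A second transcript table, with estimated counts and TPM, was made by the authors directly from the reads. No source used here names the aligner or a version. Deposited bounds of TPM were left aside.

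Gene IDs were matched to GENCODE M21. All listed symbols were matched, Mkl1 and Mkl2 through RefSeq synonyms as Mrtfa and Mrtfb. Ratios are replicate 2 over replicate 1 of expected counts scaled by TMM (edgeR 4.0.16), without a prior, and list medians use a prior of 0.5 counts over genes with more than 3 counts in a library. A library with 0 counts was set to a floor of 3 counts, and intervals and floors cover counting error only. Called means more than 2-fold apart. Named were all 10 genes, their paralogs, the 4 most abundant partners per list and those past 2-fold that average at least 100 counts, the 3 most abundant markers per cell type and those past 2-fold, up to 4, and transcripts of at least 1 TPM, of which the text gives a selection. The genes and lists were chosen with earlier results of these data known. The ratio step was tested on simulated data. Alternatives covered DESeq2 (1.42.0) size factors, library and spike-in totals, other priors, filters and thresholds, and the second transcript table. Sequences came from GENCODE transcripts on mm10 and the RefSeq promoter table (GRCm38.p6). Software was R 4.3.3, Python 3.11.15, pandas 2.3.3 and scipy 1.17.1.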

Additional observations from a re-analysis of the deposited data

How the results depend on the processing

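The scaled count ratios of all 10 genes were above 1 under every scaling (DESeq2 size factors, library total, spike-in total), both priors and the second transcript table, and each of these ratios stayed within its main counting interval. Of the 10, 6 were more than 2-fold higher, against 5 by library total or spike-in total, 7 in the second transcript table, 8 at a 1.5-fold threshold and 2 at a 3-fold threshold. The percent of all genes more than 2-fold apart was 4.50, against 8.00 among genes averaging at least 10 counts and 2.56 among those averaging at least 1000. The median log2 ratio of the 10 genes was 1.08, between 1.01 and 1.18 over its alternatives. That of the 4 genes of the myocardin family turned to -0.075, against 0.16, when members under a mean of 100 counts were left out, which removes Myocd. Levels depended on the table: the second gave TPM 1.72 times those of the first in replicate 2 and 2.00 times in replicate 1 (medians over the 10 genes), beside 1.498 times in replicate 2 and 1.59 times in replicate 1 over all genes. Of 29 transcript shares, 24 moved by more than the spread between libraries in the second table. No paired analysis was possible because both libraries belong to 1 group. Depth limits Actg2, Myocd, Cnn1 and Lmod1 most, with under 100 counts in a library, and each level rests on 2 libraries, so an SD from them is itself imprecise.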
